A study of Mus musculus with 8 samples.

Results

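The genes of MHC class II antigen presentation were examined in Sca1+Lin- cells, sorted from mouse bone marrow as positive for the surface marker Sca1 and negative for lineage markers. The list held 10 genes, H2-Aa, H2-Ab1, H2-Eb1, H2-DMa, H2-DMb1, H2-DMb2, H2-Oa, H2-Ob, Cd74 and Ciita, and its members were all probe sets whose single gene symbol in the platform annotation was one of them. There were 19 such probe sets for 9 of the 10 genes, out of 45037 probe sets and 18193 genes tested. H2-DMb1 had none: 2 probe sets are listed for H2-DMb1 and H2-DMb2 together and were left out, as was 1 listed for H2-Ob with another gene. The arrays came from 5 samples of Sca1-MALT1 mice and 3 samples of wild-type mice. By its name the transgene joins the Sca1 promoter to MALT1, the protease and scaffold that links antigen receptors to NF-kB, and it was present in the first group only. The labels give no strain, age, sex or batch, and they do not say whether the samples came from separate animals. The question of the comparison is how expression in this fraction differs between the genotypes.

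Class II molecules are pairs of an alpha and a beta chain that carry peptides from the endosome to the cell surface, where CD4 T cells read them. New pairs are held by the invariant chain, encoded by Cd74, whose remnant is later removed by the peptide editor H2-DM, while H2-DO binds H2-DM and restrains it. Transcription of the classical chains depends on CIITA, a coactivator recruited to the X and Y boxes of their promoters. Not every member need depend on it in every cell type. In bone marrow, class II proteins are known best from B cells, dendritic cells and monocytes. Plasma cells switch Ciita off through the repressor Blimp-1, the product of Prdm1.

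Promoter windows were at hand in RefSeq (GRCm38.p6) for 7 of the 10 members and are shown for 3 of them, because the classical chains and H2-Ob are what the results below turn on and CIITA acts through such boxes. Each window runs from 250 bases before the start site to 50 bases from it. Capitals mark the X box core, searched as AGNNACNGA followed by TG, and the Y box, searched as ATTGG, both on either strand, and the searched forms do not overlap each other here. H2-Eb1 (chr17:34305617-34305916, plus strand) and H2-Aa (chr17:34287774-34288073, minus strand) encode classical chains, and H2-Ob (chr17:34238655-34238954, plus strand) encodes the beta chain of the inhibitor and had the lowest difference of all members.
H2-Eb1: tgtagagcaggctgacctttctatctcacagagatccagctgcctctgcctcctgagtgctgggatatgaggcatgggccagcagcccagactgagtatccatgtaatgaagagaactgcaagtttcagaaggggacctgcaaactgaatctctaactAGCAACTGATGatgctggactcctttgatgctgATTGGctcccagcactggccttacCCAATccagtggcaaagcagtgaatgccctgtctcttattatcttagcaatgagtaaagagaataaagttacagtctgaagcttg
H2-Aa: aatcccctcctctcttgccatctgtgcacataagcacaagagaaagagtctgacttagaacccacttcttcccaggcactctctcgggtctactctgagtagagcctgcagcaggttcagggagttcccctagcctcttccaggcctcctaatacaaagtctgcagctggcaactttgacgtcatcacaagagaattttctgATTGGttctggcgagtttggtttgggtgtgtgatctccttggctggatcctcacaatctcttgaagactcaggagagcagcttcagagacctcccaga
H2-Ob: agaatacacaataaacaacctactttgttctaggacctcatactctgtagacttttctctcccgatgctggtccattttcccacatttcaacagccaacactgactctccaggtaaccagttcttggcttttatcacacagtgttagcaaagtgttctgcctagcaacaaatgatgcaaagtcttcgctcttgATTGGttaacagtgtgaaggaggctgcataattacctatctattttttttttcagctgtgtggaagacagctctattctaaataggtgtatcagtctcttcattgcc
In the H2-Eb1 window the Y box began 22 bases after the end of the X box core, and H2-DMb1 was the other member with both at the set distance of 15 to 25 bases. All 3 windows held a Y box, and those of H2-Aa and H2-Ob held no exact match to the searched X box core. The search allowed no mismatch, so it misses X boxes of another sequence. A window without a match is not shown to lack the box. Over the 8 windows of the members, 3 held the core, 7 the Y box and 2 the pair. Among the 32851 promoter windows of the table, 0.968% held the X box core, 37.4% the Y box, and 6 windows (0.0183%) the pair at that distance. AGNNACNGA without the last pair was found in 17.7% of windows. A match of letters is a description of the window and does not show binding.

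Values are log2 signals that the authors made with RMA, and the arrays had medians of 6.40 to 6.48. Some arrays stood apart in ways that genotype does not describe. Xist, the RNA of the inactive X chromosome, read 13.09 and 12.46 in Sca1-MALT1 replicates 2 and 4 and 6.20 to 6.58 on the other arrays, so no wild-type array was Xist-high and the 2 genotypes cannot be compared among Xist-high arrays. H2-D1, a class I gene of the same chromosome 17 complex that was looked at after its values were seen, read 5.41 and 5.28 with one probe set (A) in Sca1-MALT1 replicates 1 and 2, against 10.43 to 12.37 on the other 6 arrays. Another (B) read 10.40 and 10.25 in Sca1-MALT1 replicates 3 and 5 and 9.49 in wild-type replicate 2, against 12.64 to 13.94 on the other 5 arrays. Both probe sets were bright in Sca1-MALT1 replicate 4 and in wild-type replicates 1 and 3. A and B were picked from a larger number of H2-D1 probe sets, which did not all show these splits. One followed A, at 9.50 and 10.11 in Sca1-MALT1 replicates 1 and 2, against 12.95 to 14.26 on the other arrays. Another did not, at 8.35 and 9.96 in those replicates and 9.23 in wild-type replicate 1. The H2 complex differs in sequence between mouse strains, and probes are made for particular sequences. The part that alleles have in the signals below was not tested. The labelled fraction could not be checked through Sca1 itself (Ly6a), which is not analysed here. Markers of lineage-positive cells were bright in both genotypes, with neutrophil markers averaging 10.54 to 14.00 in Sca1-MALT1 and 12.26 to 12.81 in wild-type arrays.

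The class II genes other than Ciita had mean log2 signals of 9.44 to 12.74 in Sca1-MALT1 and 9.90 to 12.56 in wild type, well above the array medians, and Ciita lay near them. No member passed the test between the genotypes. Of 9 member genes, 0 passed an adjusted p of 0.05 in limma's test with Benjamini-Hochberg adjustment over all 18193 genes, in which 16 genes (0.0879%) passed. At an unadjusted p under 0.05 there were 3 member genes, Cd74, H2-Ob and Ciita, against 10.2% of all genes. The genotypes did not overlap in 2 members, H2-Ob and Ciita, against 7.13% of all genes. Both were lower in every Sca1-MALT1 array, as 2.87% of all genes were, and 0 members were higher in every one, against 4.27% of all genes. The median log2 difference, Sca1-MALT1 minus wild type, was -0.19 over the 9 genes and 0.0040 over all genes, with 4 members higher and 5 lower. In bulk RNA, fewer cells of a type and less RNA per cell cannot be told apart.

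**Figure D1:**
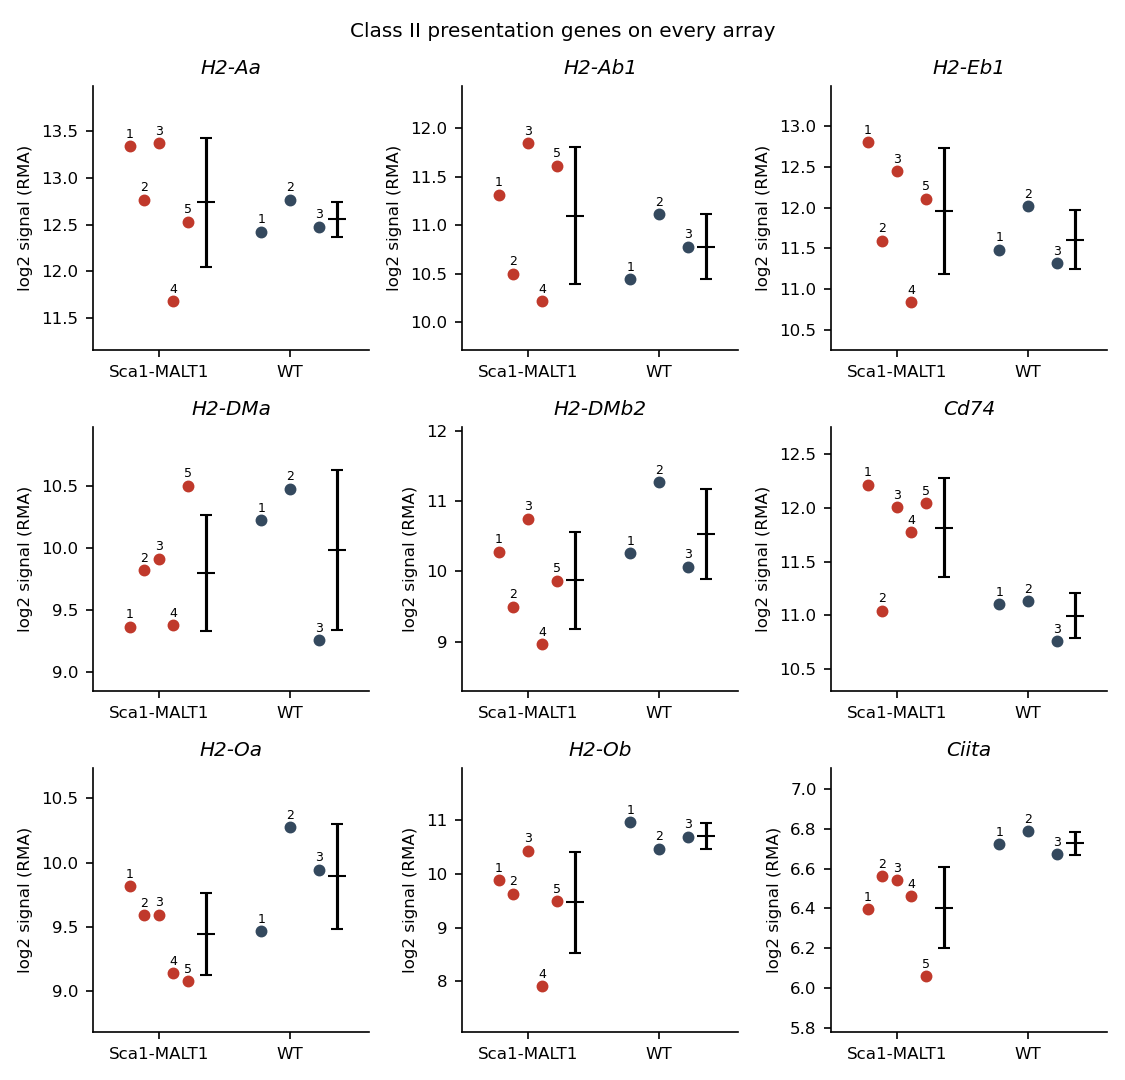
Log2 signal of the 9 measured class II presentation genes on each array, with its replicate number, in Sca1-MALT1 (red, left) and wild type (blue, right); the black marks are mean ± SD (n = 5 and 3), and the vertical axes differ between panels. The groups do not overlap in H2-Ob and Ciita, and Sca1-MALT1 replicate 4 is the lowest array in 5 of the 9 panels.

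The classical chains spread widely among the Sca1-MALT1 arrays, on both sides of wild type. H2-Aa, the alpha chain of the I-A molecule, read 13.34, 12.77, 13.38, 11.68 and 12.53 in Sca1-MALT1 replicates 1 to 5, against 12.43, 12.77 and 12.48 in wild-type replicates 1 to 3. Sca1-MALT1 replicates 1 and 3 were above every wild-type array, replicate 2 was level with the highest of them, and replicate 4 was below all of them. The log2 difference was 0.18 (SE 0.37, 95% interval -0.66 to 1.02, limma adjusted p = 0.906). H2-Ab1, the beta chain that pairs with it, read 11.31, 10.50, 11.84, 10.22 and 11.61 in Sca1-MALT1 replicates 1 to 5, against 10.45, 11.11 and 10.78 in wild type. Here replicates 1, 3 and 5 were above every wild-type array and replicate 4 again below. The difference was 0.32 (SE 0.39, interval -0.56 to 1.20, limma adjusted p = 0.827).

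H2-Eb1, the beta chain of the I-E molecule, read 12.80, 11.59, 12.44, 10.84 and 12.11 in Sca1-MALT1 replicates 1 to 5, against 11.48, 12.02 and 11.32 in wild type. Replicates 1, 3 and 5 lay above every wild-type array and replicate 4 below all of them. The difference was 0.35 (SE 0.42, interval -0.60 to 1.30, limma adjusted p = 0.823). Leaving out single arrays moved H2-Aa between 0.022 and 0.45, H2-Ab1 between 0.13 and 0.54 and H2-Eb1 between 0.14 and 0.63. The lowest values came without Sca1-MALT1 replicate 3 for H2-Aa and H2-Ab1 and without replicate 1 for H2-Eb1, and all 3 highest came without replicate 4. The intervals of the 3 chains leave room for differences of about this size in either direction, so they do not show that the genotypes were alike.

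Cd74, the invariant chain, had the highest difference among the members and did not pass. It read 12.21, 11.04, 12.01, 11.77 and 12.04 in Sca1-MALT1 replicates 1 to 5, against 11.10, 11.13 and 10.76 in wild type. Sca1-MALT1 replicates 1, 3, 4 and 5 were above every wild-type array, and replicate 2 lay within the wild-type range. Its mean was 11.82 ± 0.46 in Sca1-MALT1 (SD, n = 5) and 10.997 ± 0.21 in wild type (SD, n = 3), a log2 difference of 0.82 (SE 0.26, interval 0.23 to 1.41, limma adjusted p = 0.360, exact two-sided permutation p = 0.0714). Without Sca1-MALT1 replicate 2 the difference was 1.01 (limma adjusted p = 0.0760). Unlike the classical chains, Cd74 in Sca1-MALT1 replicate 4 was not below wild type. Cd74 lies on chromosome 18, outside the H2 complex.

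The peptide editor H2-DM read lower on average in Sca1-MALT1, within the spread of the arrays. H2-DMb2, a beta chain of H2-DM, read 10.28, 9.50, 10.75, 8.97 and 9.87 in Sca1-MALT1 replicates 1 to 5, against 10.26, 11.27 and 10.07 in wild type. Replicates 2, 4 and 5 lay below every wild-type array and wild-type replicate 2 above all arrays. The difference was -0.66 (SE 0.43, interval -1.63 to 0.32, limma adjusted p = 0.653). It was -0.29 without wild-type replicate 2 and -0.89 without wild-type replicate 3. H2-DMa, its alpha chain, read 9.37, 9.82, 9.91, 9.38 and 10.50 in Sca1-MALT1 replicates 1 to 5, against 10.22, 10.48 and 9.26 in wild type. Its highest and lowest arrays were Sca1-MALT1 replicate 5 and wild-type replicate 3, and the difference was -0.19 (SE 0.34, interval -0.97 to 0.59, limma adjusted p = 0.890).

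The genes of the inhibitor H2-DO read lower in Sca1-MALT1, with no overlap between the genotypes in H2-Ob, and neither passed. H2-Ob, the beta chain, read 9.88, 9.63, 10.43, 7.91 and 9.49 in Sca1-MALT1 replicates 1 to 5, against 10.96, 10.47 and 10.69 in wild type. All Sca1-MALT1 arrays were below all wild-type arrays, replicate 3 narrowly so and replicate 4 by the widest margin. Its mean was 9.47 ± 0.94 in Sca1-MALT1 (SD, n = 5) and 10.71 ± 0.25 in wild type (SD, n = 3), a log2 difference of -1.24 (SE 0.49, interval -2.37 to -0.11, limma adjusted p = 0.444, exact two-sided permutation p = 0.0714). Without Sca1-MALT1 replicate 4 it was -0.85 (limma adjusted p = 0.244). H2-Oa, the alpha chain, read 9.82, 9.59, 9.60, 9.14 and 9.08 in Sca1-MALT1 replicates 1 to 5, against 9.46, 10.28 and 9.94 in wild type. Replicates 4 and 5 lay below every wild-type array, and wild-type replicates 2 and 3 above every Sca1-MALT1 array. The difference was -0.45 (SE 0.23, interval -0.99 to 0.08, limma adjusted p = 0.558), and -0.26 without wild-type replicate 2.

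Ciita, which encodes the transactivator, was dim in both genotypes. It read 6.39, 6.56, 6.54, 6.46 and 6.06 in Sca1-MALT1 replicates 1 to 5, against 6.72, 6.79 and 6.67 in wild type. All Sca1-MALT1 arrays were below all wild-type arrays, with Sca1-MALT1 replicate 2 closest to wild-type replicate 3. The difference was -0.32 (SE 0.14, interval -0.63 to -0.02, limma adjusted p = 0.470, exact two-sided permutation p = 0.0357). Without Sca1-MALT1 replicate 5, the lowest array, it was -0.24 (limma adjusted p = 0.506). The brightest probe set averaged 6.40 in Sca1-MALT1 and 6.73 in wild type, beside array medians of 6.40 to 6.48, and RMA gives no detection call, so these values are not shown to exceed background. Of the 9 exact tests run, one per member gene and not adjusted, Ciita had the lowest p. The smallest that 3 against 5 arrays allow is 0.0179.

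The probe sets of a gene did not always show the same pattern, and H2-Aa was the clearest case. None of the 19 member probe sets passed when every probe set was tested on its own with limma, where 0.06% of 45037 passed, and 3 had an unadjusted p under 0.05, against 9.47% of all. The genotypes did not overlap in 2 of the 19, both lower, against 6.83% of all probe sets (3.15% lower and 3.68% higher). All 3 probe sets of H2-Ab1 read higher on average in Sca1-MALT1, from 0.32 to 0.61, all 3 of H2-DMb2 lower, from -0.66 to -0.42, and all 3 of Ciita lower, from -0.32 to -0.25. The dimmer Ciita probe sets averaged 5.99 and 4.48 in Sca1-MALT1 and 6.24 and 4.78 in wild type. Both averages lay below the array medians, and the genotypes overlapped in each. The 4 probe sets of H2-Aa ran from -0.71 to 0.63, with 2 on each side of 0. The second probe set of H2-DMa differed by 0.00021, against -0.19 for the brighter one.

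**Figure D2:**
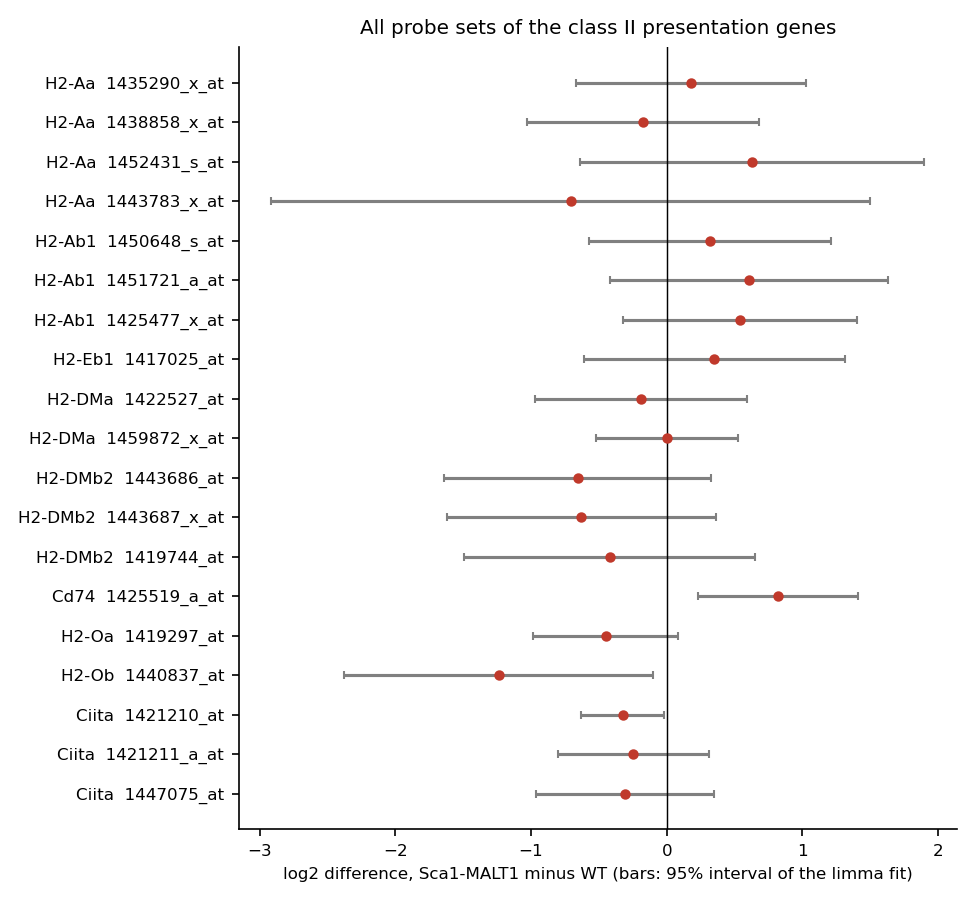
Log2 difference, Sca1-MALT1 minus wild type, of the 19 probe sets of the class II presentation genes, with 95% intervals of the limma fit over all probe sets, the probe sets of a gene running from bright to dim. The 4 probe sets of H2-Aa lie on both sides of 0, and the intervals of Cd74, H2-Ob and the brightest Ciita probe set do not include 0 before adjustment.

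The dimmest H2-Aa probe set read 5.84, 4.77, 8.98, 6.73 and 8.81 in Sca1-MALT1 replicates 1 to 5, against 7.32, 8.37 and 7.51 in wild type. It was low in Sca1-MALT1 replicates 1 and 2, high in Sca1-MALT1 replicates 3 and 5 and wild-type replicate 2, and between in the other 3 arrays. These are the same sets of arrays that H2-D1 probe sets A and B set apart. The third brightest probe set of the same gene read 12.44, 11.13, 11.40, 9.63 and 10.30 in Sca1-MALT1 replicates 1 to 5, against 10.28, 10.45 and 10.33 in wild type, and was not low in Sca1-MALT1 replicates 1 and 2. H2-Ea, the alpha chain of I-E, which C57BL/6 mice do not express, ran the other way. Its second brightest probe set read 8.32, 7.68, 4.96, 5.67 and 4.76 in Sca1-MALT1 replicates 1 to 5, against 5.88, 4.37 and 6.30 in wild type. It was highest in Sca1-MALT1 replicates 1 and 2 and lowest in Sca1-MALT1 replicates 3 and 5 and wild-type replicate 2. Outside Sca1-MALT1 replicates 1 and 2 it lay below the array medians, so that low ranking is of values not shown to exceed background. The brightest H2-Ea probe set was also highest in those replicates, at 9.47 and 9.17. It did not give the same low set, with Sca1-MALT1 replicate 5 at 8.68 and wild-type replicate 1 at 8.52. The dimmest, at most 4.49 on any array, showed neither set.

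**Figure D3:**
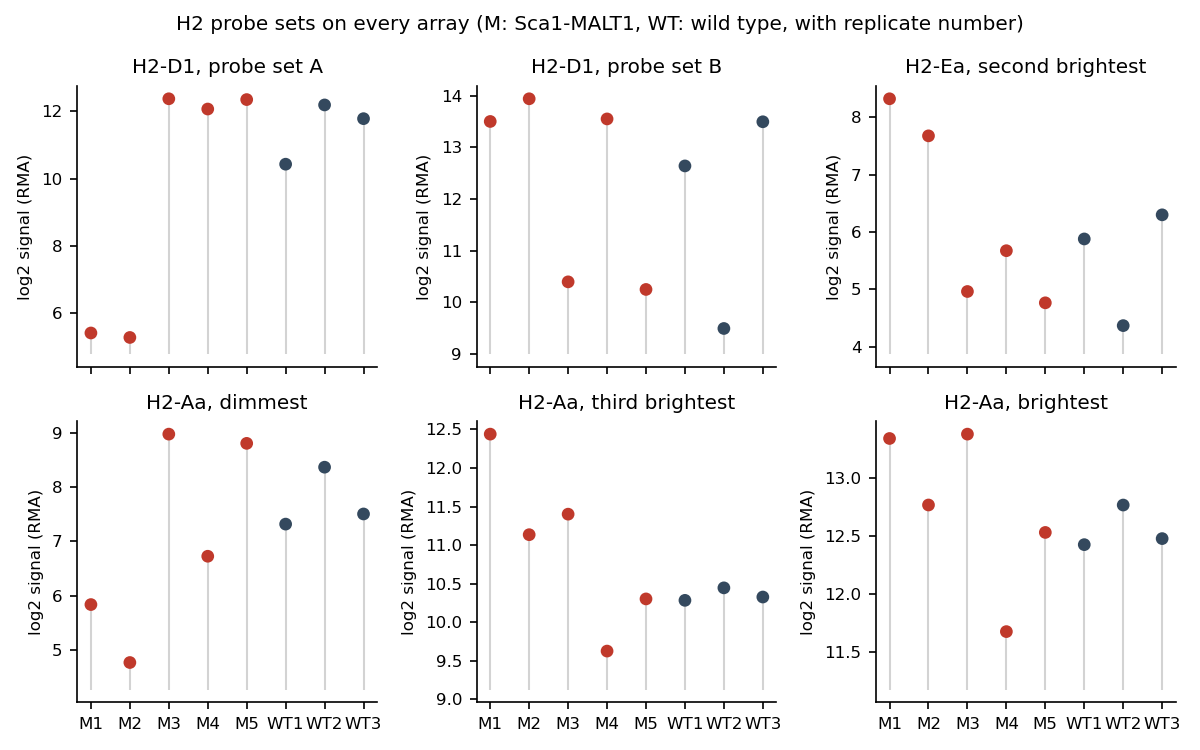
Log2 signal of 6 H2 probe sets on each array, Sca1-MALT1 replicates 1 to 5 (red, M) and wild-type replicates 1 to 3 (blue, WT). The arrays low with H2-D1 probe set A (M1, M2) are the lowest with the dimmest H2-Aa probe set and the highest with this H2-Ea probe set. The arrays low with H2-D1 probe set B (M3, M5, WT2) are the highest with that H2-Aa probe set. They are the lowest with this H2-Ea probe set, at values not shown to exceed background.

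With the difference of the 2 H2-D1 probe sets as a term in the limma fit, chosen after seeing the data, H2-Ab1 differed by 0.49 (adjusted p = 0.733), Cd74 by 0.91 (adjusted p = 0.394) and H2-Ob by -1.27 (adjusted p = 0.539).

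A term for the Xist-high arrays moved the classical chains up and the differences of H2-Ob and H2-DMb2 nearer to 0. With it, the limma differences were 0.53 for H2-Aa (adjusted p = 0.555), 0.81 for H2-Ab1 (adjusted p = 0.197) and 0.84 for H2-Eb1 (adjusted p = 0.283), each over 1.5 times the value without it. Cd74 differed by 1.09 (adjusted p = 0.119), and H2-Ob and H2-DMb2 by -0.77 and -0.23 (adjusted p = 0.513 and 0.837). On the 6 Xist-low arrays alone, a setting chosen after seeing the data, the differences were the same, because only Sca1-MALT1 arrays were Xist-high. The term thus leaves Sca1-MALT1 replicates 2 and 4 out of the difference. The lowest limma adjusted p on the 6 arrays was that of Cd74, 0.0615. Among Sca1-MALT1 arrays, the Xist-high replicates 2 and 4 also had the lowest mean classical class II and B cell marker signals.

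Cell type marker lists were read on the same arrays. Of 13 measured B cell markers, 11 were lower in Sca1-MALT1 and 0 passed, with a median log2 difference of -1.04. Their mean per array was 9.74, 8.50, 9.45, 7.99 and 8.86 in Sca1-MALT1 replicates 1 to 5, against 9.70, 9.81 and 10.25 in wild type. The array lowest in H2-Aa, H2-Ab1, H2-Eb1, H2-DMb2 and H2-Ob, Sca1-MALT1 replicate 4, was thus also the lowest in B cell markers. It had the highest mean of the 8 neutrophil markers, 14.00. This low rank was not particular to B cell markers. The same array was the lowest in T cell markers (8.91), NK cell markers (7.84) and costimulation genes (6.95). The 4 B cell markers with the lowest p, none past the threshold, included Spib, an ETS factor of B cells, at -2.21. The others were the surface receptor Cd72 at -1.55, the lineage factor Ebf1 at -2.28 and the antigen receptor chain Cd79b at -1.04 (limma adjusted p of 0.180 to 0.434). Among 8 early B cell markers, which do not define class II-bearing cells, Igll1, Vpreb1, Rag1 and Rag2 fell, and 7 were lower.

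Plasma cell markers had 10 of 10 above wild type and a median of 1.97, and Jchain, which links the units of secreted antibody, rose by 2.58 (SE 0.27, limma adjusted p = 0.0163). The mean of the list was 11.19 to 12.82 in Sca1-MALT1 and 9.60 to 9.73 in wild-type arrays, without overlap. Xbp1, Edem1 and Igha, at 1.32, 2.82 and 5.93, had adjusted p-values of 0.109 each. The list means of dendritic cells and of monocytes and macrophages overlapped between the genotypes. Of their genes, Ly86 was lower in every Sca1-MALT1 array, as 2.87% of all genes were. Some dendritic cell markers lay below the array medians of 6.40 to 6.48 and are not shown to exceed background. Xcr1 averaged 4.16 in both genotypes, and Lag3 6.02 in Sca1-MALT1 and 5.69 in wild type. Conventional dendritic cell markers averaged 6.89 to 7.52 in Sca1-MALT1 and 7.28 to 7.70 in wild-type arrays, with 6 of 10 lower, 0 passed, and Flt3 at -1.59, Itgax at -0.62, Clec10a at -0.75 and Sirpa at -0.68. Plasmacytoid dendritic cell markers averaged 8.05 to 8.45 in Sca1-MALT1 and 8.34 to 8.46 in wild type, with 4 of 8 lower, 0 passed, and Pacsin1 at 0.62, Siglech at -0.35, Cox6a2 at -0.70 and Bst2 at -0.64. Monocyte and macrophage markers averaged 8.05 to 9.74 in Sca1-MALT1 and 8.88 to 9.81 in wild type, with 9 of 11 lower, 0 passed, and Ly86 at -1.13, Csf1r at -1.69, Lyz2 at -1.33 and Mrc1 at -0.75. The part of any of these cells in the class II values was not tested.

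**Figure D4:**
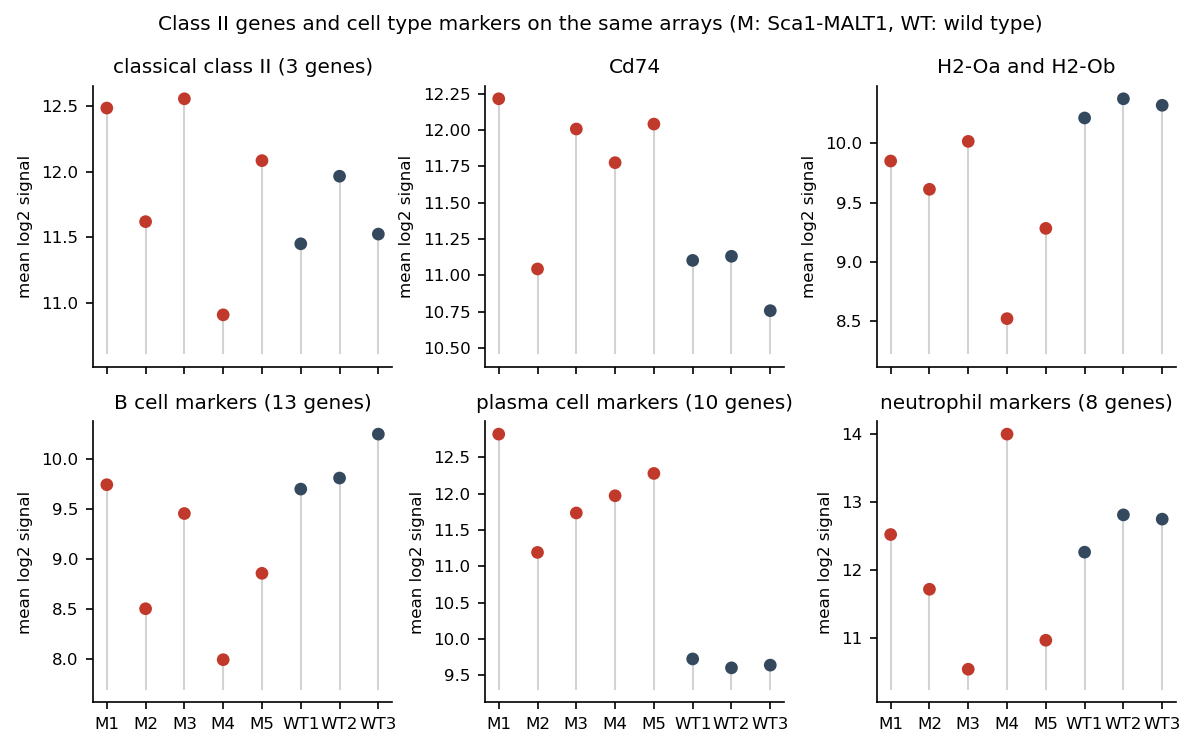
Mean log2 signal per array of the classical class II genes, Cd74, the H2-DO genes and 3 marker lists, Sca1-MALT1 replicates 1 to 5 (red, M) and wild-type replicates 1 to 3 (blue, WT). M4 is lowest in the classical genes, the H2-DO genes and the B cell markers and highest in the neutrophil markers, while the plasma cell markers separate the genotypes.

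None of the other genes of the pathway passed. Of 59 measured genes in 6 lists, 0 passed limma's test (lowest adjusted p = 0.127). The median difference was 0.02, with 32 higher and 27 lower. At an unadjusted limma p under 0.05 there were 6 of the 59, against 10.2% of all genes. The genotypes did not overlap in 3 of the 59, against 7.13% of all genes. H2-Eb2, a relative of the I-E beta chain, read 9.13, 7.23, 7.85, 7.51 and 7.80 in Sca1-MALT1 replicates 1 to 5, against 7.12, 6.61 and 6.996 in wild type. All Sca1-MALT1 arrays lay above all wild-type arrays, and the difference was 0.99 (SE 0.39, limma adjusted p = 0.435). H2-Ea, by its brightest probe set, differed by 0.38 (adjusted p = 0.612). The promoter factors that recruit CIITA, which comprise the RFX and NF-Y subunits and Creb1, had 2 of 7 higher and a median of -0.14, with Creb1 at -0.21, Nfyb at -0.19, Rfx5 at -0.21 and Nfya at -0.14.

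Regulators of Ciita were split, with 8 of 15 higher and a median of 0.03. Prdm1 read 11.31, 9.62, 9.83, 9.94 and 9.73 in Sca1-MALT1 replicates 1 to 5, against 6.29, 8.12 and 7.59 in wild type. Every Sca1-MALT1 array was above every wild-type array, and the difference was 2.76 (SE 0.49, limma adjusted p = 0.127). Pax5, the B cell commitment factor, differed by -1.16 (SE 0.24, limma adjusted p = 0.204), also without overlap, with means of 5.77 ± 0.19 in Sca1-MALT1 (SD, n = 5) and 6.93 ± 0.57 in wild type (SD, n = 3). Irf4, a factor of plasma cells and dendritic cells, stood at 1.74 and the cytokine receptor kinase Jak1 at 0.59 (limma adjusted p = 0.347 and 0.542).

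Genes of endosomal processing had 9 of 17 higher and a median of 0.02. The protease genes Napsa, Tpp1, Ctss and Ctsd, of which Ctss encodes the enzyme that trims the invariant chain in B cells and dendritic cells, stood at -0.57, 0.27, 0.52 and 0.35 (limma adjusted p of 0.461 to 0.529). Genes of surface turnover and tetraspanin partners had 4 of 8 higher and a median of 0.0035, with Cd37 at -0.28, Cd9 at -0.69, Cd81 at 0.34 and Cd82 at 0.28. Costimulation genes had 7 of 10 higher and a median of 0.20. Of these, Cd40, the receptor for T cell help, stood at -0.91, the CD28 ligand Cd86 at -0.82, Cd274, which encodes PD-L1, at 0.61 and Icosl at 0.30 (limma adjusted p of 0.409 to 0.555).

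**Figure D5:**
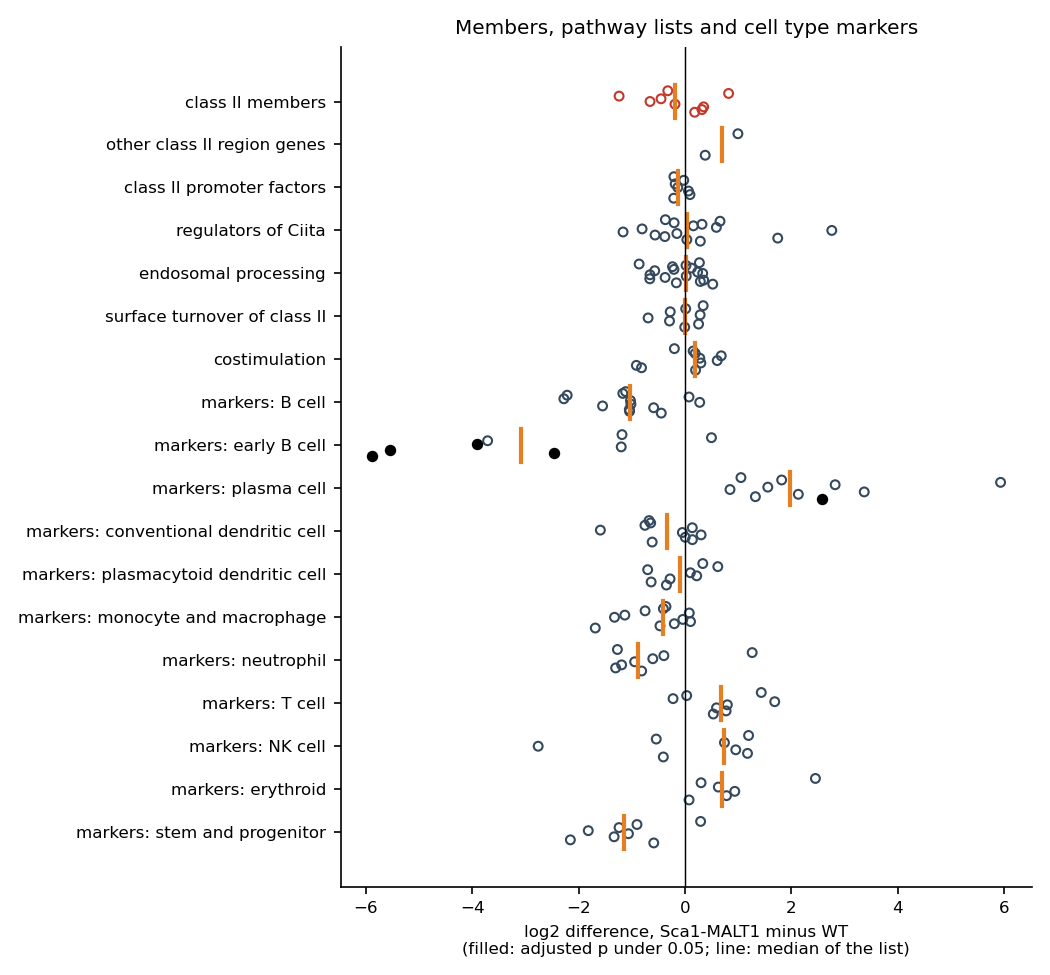
Log2 difference, Sca1-MALT1 minus wild type, of the 9 class II members (red), the genes of 6 pathway lists and those of 11 marker lists; filled points have an adjusted p under 0.05, and the orange line is the median of a list. No member or pathway gene is filled, and the filled genes are Igll1, Vpreb1, Rag1, Rag2 and Jchain.

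The genes whose signals followed the mean of the members most closely over the 8 arrays were Cradd, Cplane2, 4933403O08Rik, Tacr3, Kynu, Ephx1, Zfp667 and Prl8a2, with Pearson's r of 0.92 to 0.95, and those running most against it were Flot1, Csf2rb2, Mettl9 and Slc4a2, with r of -0.97 to -0.93. With the genotype means taken off, the closest were Spock2, Gpr137b, Ptpn22, Cplane2, Ctla4, Gramd3, Cradd and AW549877, at 0.95 to 0.98. These are the extremes of 18184 genes over only 8 arrays, and 150 genes had r above 0.8. The means of the cell type markers also differed from array to array.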

How the data were processed

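RNA of the sorted cells was amplified by in vitro transcription, per the labels' protocols, and measured on 1-colour arrays whose probe sets carry Affymetrix names. The deposited table held log2 values from RMA, run by the authors per the submitters' processing notes. No RMA version is given in the sources used here, and the log2 scale was read from the values (2.73 to 15.41). No depth applies to arrays: their number limits the precision.

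Of 45101 probe sets, 64 controls were left out; 34945 had 1 gene symbol, 932 several and 9160 were not listed. Symbols were updated through Entrez identifiers (RefSeq table, GRCm38.p6, names only; 18031 of 18193 genes matched). A gene with several probe sets was read from its brightest one on average over the 8 arrays; every member probe set was also fitted. The genotypes were compared with limma 3.58.1 in R 4.3.3, two-sided, with Benjamini-Hochberg adjustment over all genes, and intervals are 95% intervals of that fit. Single genes were also compared by exact permutation over the 56 splits. The fit was tested on simulated data. The replicate numbers do not pair the arrays. Alternatives were other normalization, centring, filters, probe set rules, variance models, weights, thresholds, a replicate block, a term for Xist above 9, a term for H2-D1 and leaving out each array. Named genes are all members, up to 4 genes per list with the lowest p, and the genes most like the member mean. H2-D1, H2-K1, Xcr1 and Lag3 fall outside this rule and were chosen after their values were seen. The members and lists were chosen with earlier results of these data known. Since separate animals are not stated, the p-values may not cover the full spread between animals. Xist in Sca1-MALT1 and some H2-D1 probe sets in both genotypes differed widely between arrays, so the arrays of a genotype were not alike in these signals. The cause was not tested, and the arrays cannot be taken as repeats of the same material. Some listed genes are not analysed here.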

Additional observations from a re-analysis of the deposited data

Results flagged for a closer look

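A single array stood far from the others of its group in 1 of the 19 member probe sets, which is about what chance gives at 1 in 20. For the dimmer H2-DMa probe set, Sca1-MALT1 replicate 5 read 8.37, against 7.75, 7.62, 7.65 and 7.51 in the other Sca1-MALT1 replicates. Its gap to the nearest array was 0.721 of the range, above the limit of 0.71 for 5 samples. The brighter H2-DMa probe set was also highest in this array, at 10.50.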

How the results depend on the processing

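No member gene passed under any of the 22 alternatives, and no member probe set under the 15 run for them. The lowest limma adjusted p was 0.0615 and 0.0978, the first being that of Cd74 on the Xist-low arrays. The alternatives are not independent. The stricter thresholds could not have added a member, since none passed at 0.05, and the Xist term and the Xist-low arrays gave the same differences. Cd74, H2-Ab1 and H2-Eb1 stayed higher, and H2-DMb2, H2-Oa, H2-Ob and Ciita lower, under every alternative that gave them a value; Ciita was too dim for the filter at the median signal. H2-Aa turned to -0.018 with the mean of the probe sets, and H2-DMa, which lay between -0.552 and 0.0567 when single arrays were left out, turned to 0.0567 without WT replicate 2; the cause was not tested. The median of the members moved between -0.35 and 0.06 when single arrays were left out. The number of genes past the threshold over the whole table, 16, was 8 at an adjusted p of 0.01, 27 over all probe sets, 28 with array weights, 29 with the Xist term and 59 on the Xist-low arrays, and 8 to 38 when single arrays were left out (10, 38, 8 and 9 without Sca1-MALT1 replicates 1, 2, 3 and 5). With the replicate block it was 0. Sca1-MALT1 replicates 4 and 5 have no wild-type array of the same number, so that fit compared only replicates 1 to 3. Same-numbered arrays correlated at -0.22, -0.04 and 0.0064 in their deviations, so the numbers are not taken as pairs. The largest shift of the median of all genes was 0.0233.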

Other observations

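Of 8 measured T cell markers, 7 were higher in Sca1-MALT1 and 0 passed, with a median log2 difference of 0.68. The kinase gene Zap70 stood at 0.80, the costimulatory receptor Cd28 at 1.69, Thy1 at 1.43 and the receptor chain Cd3e at 0.77 (limma adjusted p of 0.209 to 0.529). Their mean was 9.83, 10.02, 10.05, 8.91 and 10.09 in Sca1-MALT1 replicates 1 to 5, against 8.93, 9.22 and 9.08 in wild type, with Sca1-MALT1 replicate 4 the lowest. NK cell markers had 4 of 7 higher and a median of 0.74, erythroid markers 6 of 6 higher and a median of 0.70, and stem and progenitor markers 7 of 8 lower and a median of -1.15, with 0 passed in each.

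A probe set of the class I gene H2-K1 set apart the same arrays as H2-D1 probe set A. It read 9.92 and 10.42 in Sca1-MALT1 replicates 1 and 2, against 12.52 to 13.98 on the other 6 arrays. Another H2-K1 probe set read 12.86 and 13.38 in those replicates and 12.22 to 13.48 on the others. For RNA quality, the Gapdh control read 2.25 to 3.198 log2 units more at its 3' than at its 5' end in Sca1-MALT1 arrays, against 2.699 to 2.92 in wild type, the most in Sca1-MALT1 replicate 5.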
